A study of Homo sapiens with 11 samples.

Results

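Human chromosome 19 carries most of its zinc finger genes in a few long clusters. The regions described here are the members of 8 lists of enriched regions whose centre lay in 1 of 5 such clusters on chromosome 19, in hg19 coordinates: 19.8 to 24.6 Mb, 36.7 to 38.4 Mb, 44.3 to 45.0 Mb, 52.5 to 54.0 Mb and 56.5 to 59.12 Mb. Each cluster is named below by its start. The rule used position only, and it took 1684 of the 407030 regions of the 8 lists, or 9.82% of those on chromosome 19. The clusters span 11.3 Mb, which is 20.2% of the length of chromosome 19 used here, and the other 15469 regions of the chromosome lay in 44.7 Mb.

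Of the 8 lists 5 came from U2OS, an osteosarcoma cell line, with 1 sample per list. They were ChIP-Seq peaks of CUL4A, CDT2, H3K4me3 and H3K9me3, and replication origins mapped from short nascent DNA strands in RepID wild-type (WT) cells. For CDT2 the label names only U2OS, the paper's text names WT cells and the design text names stable cells overexpressing FLAG-RepID-FL, so the cells of that list could not be settled. The other 3 came from HCT116, a colon carcinoma cell line: SKP2 ChIP-Seq peaks of WT cells, SKP2 ChIP-Seq peaks of RepID knockout (KO) cells, and origins of RepID KO cells. Per the methods, the KO line was cloned after CRISPR directed at exon 8 of the RepID gene, so a difference between genotypes is also a difference between 1 clone and its parental cells. For the cultures with a list, the sample titles and the methods of these assays name no treatment or synchronization. The other 3 of the 11 samples were inputs without a list.

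Many genes of these clusters encode KRAB zinc finger proteins, DNA-binding repressors many of which recognize transposable elements. They recruit TRIM28 and, through it, the methyltransferase SETDB1, which deposits H3K9me3, and the zinc finger genes themselves are known to carry H3K9me3 over their coding ends in many cell types, beside promoters marked by H3K4me3. CUL4A is the cullin on which CRL4 ubiquitin ligases assemble, and CDT2 is a receptor that brings replication factors to CRL4 in S phase. RepID (PHIP) is another CRL4 receptor and binds a subset of origins. SKP2 brings cell cycle inhibitors to SCF, a ligase built on another cullin.

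In the order of genes of the GRCh38 annotation, 265 of the 1451 protein-coding genes of chromosome 19 had a symbol of a zinc finger family. They made up 33 of 35 genes from ZNF93 to ZNF254, 29 of 30 from ZNF565 to ZNF573, 20 of 20 from ZNF283 to ZNF180, 22 of 26 from ZNF480 to ZNF677 and 60 of 82 from ZSCAN5A to MZF1, which is 164 of the 193 genes of the 5 runs. The ends of these runs were taken from general knowledge of the clusters. The lists are in hg19 and no annotation or sequence of that build was used here, so the runs were not laid over the regions, no region was given a gene and no base sequence is shown.

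All 8 lists were sparser in the clusters than in the rest of chromosome 19, counting regions per Mb. The gap was widest for CUL4A, with 223 peaks or 19.7 per Mb (95% interval 17.2 to 22.5) in the clusters against 62.7 per Mb in the rest, a ratio of 0.314 (0.273 to 0.361). U2OS origins numbered 342, or 30.2 per Mb against 87.3, a ratio of 0.346 (0.309 to 0.387). HCT116 RepID KO origins numbered 410, or 36.2 per Mb against 86.3, a ratio of 0.420 (0.378 to 0.465). Origins were thus sparser in the clusters in both cell lines.

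For CDT2 the 128 peaks gave 11.3 per Mb against 23.6, a ratio of 0.480 (0.396 to 0.577). The histone marks lay closer to the rest, with 196 H3K9me3 peaks at a ratio of 0.546 (0.467 to 0.634) and 228 H3K4me3 peaks at 0.645 (0.558 to 0.742). SKP2 peaks numbered 51 in HCT116 WT cells, with a ratio of 0.413 (0.303 to 0.552), and 106 in RepID KO cells, with a ratio of 0.744 (0.599 to 0.918). These intervals are exact and cover counting error only: neighbouring regions are not independent, each list is 1 sample, and no p-value between lists or conditions can be given.

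The clusters were not alike, and the 19.8 Mb cluster, which ends beside the longest stretch of the chromosome without any region, stood apart from the other 4. In it the U2OS lists held 13 CUL4A peaks, 7 CDT2 peaks, 21 H3K4me3 peaks, 13 H3K9me3 peaks and 5 origins over 4.8 Mb. Relative to the rest of chromosome 19 this was 0.0432 for CUL4A, 0.0619 for CDT2, 0.140 for H3K4me3, 0.0853 for H3K9me3 and 0.0119 for origins. The HCT116 lists were less sparse there, at 0.172 for SKP2 in WT cells, 0.646 for SKP2 in RepID KO cells and 0.290 for RepID KO origins.

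Without the 19.8 Mb cluster the pooled ratios moved toward or past 1. H3K4me3 then stood at 1.02 (0.874 to 1.18), which turned its direction, and H3K9me3 at 0.884 (0.754 to 1.03), so neither mark differed from the rest beyond counting error in the other 4 clusters pooled. CUL4A stood at 0.514 (0.445 to 0.592), U2OS origins at 0.592 (0.528 to 0.662), CDT2 at 0.787 (0.647 to 0.951), SKP2 in WT cells at 0.591 (0.421 to 0.811) and RepID KO origins at 0.516 (0.456 to 0.581), all still below the rest. The ratio of SKP2 in RepID KO cells was 0.817, with an interval of 0.624 to 1.05 that includes 1.

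**Figure D1:**
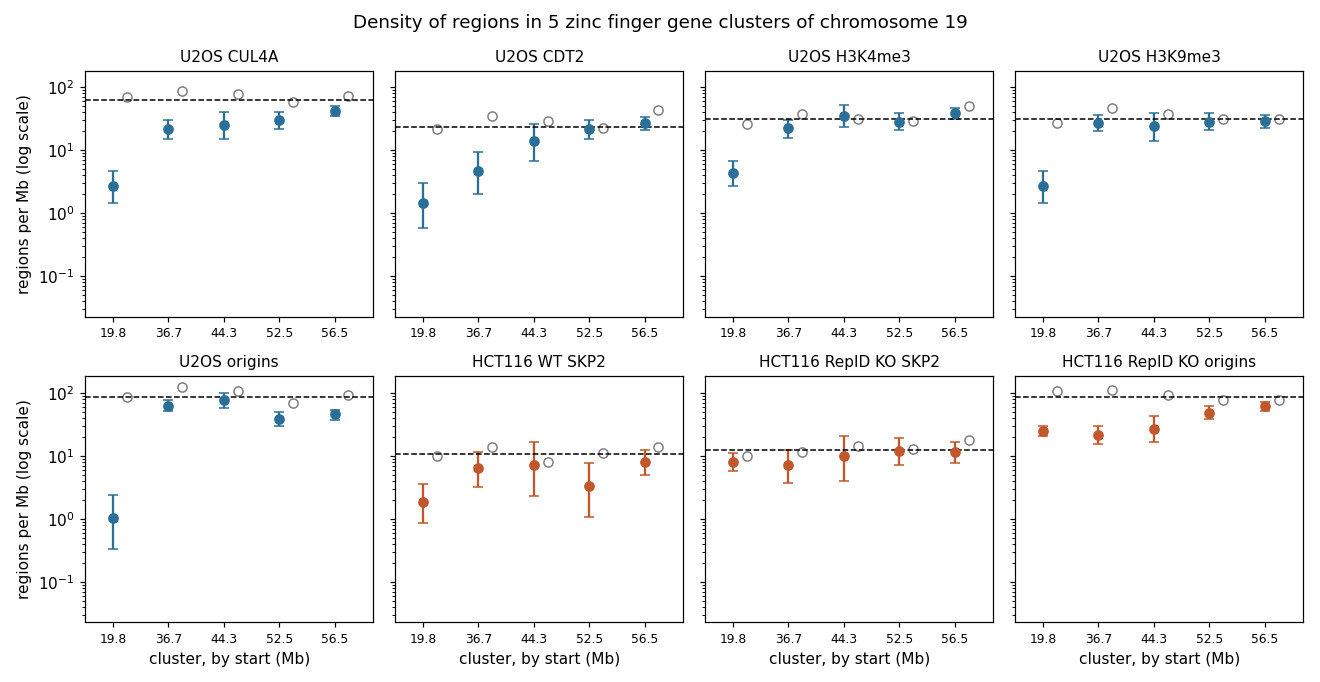
Regions per Mb (log scale) in each of the 5 clusters, named by start in Mb, for the 8 lists (U2OS in blue, HCT116 in orange). Filled points carry exact 95% counting intervals, open circles are the sequence within 1 Mb of that cluster and the dashed line is the rest of chromosome 19. The 19.8 Mb cluster is lowest in all U2OS lists, down to 1.04 origins per Mb.

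Densities differed in order between the lists along the other clusters. CUL4A peaks numbered 37 in the 36.7 Mb cluster (21.8 per Mb), 18 in the 44.3 Mb cluster (25.7 per Mb), 45 in the 52.5 Mb cluster (30.0 per Mb) and 110 in the 56.5 Mb cluster (42.0 per Mb), and in each the interval of the ratio stayed below 1. CDT2 peaks went from 8 in the 36.7 Mb cluster (4.71 per Mb) and 10 in the 44.3 Mb cluster (14.3 per Mb) to 33 in the 52.5 Mb cluster (22.0 per Mb) and 70 in the 56.5 Mb cluster (26.7 per Mb). For this receptor the last pair of clusters did not differ from the rest beyond counting error, with ratios of 0.933 (0.639 to 1.32) and 1.13 (0.877 to 1.45). Without the 56.5 Mb cluster, the pooled ratio fell to 0.283 for CDT2 and to 0.207 for CUL4A.

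H3K4me3 peaks were densest in the 56.5 Mb cluster (101 peaks, 38.6 per Mb) and in the 44.3 Mb cluster (25 peaks, 35.7 per Mb), against 31.2 per Mb in the rest, with intervals of the ratios that reach below 1 in both. H3K9me3 was nearly level over the 36.7, 44.3, 52.5 and 56.5 Mb clusters, at 27.6, 24.3, 28.7 and 29.0 peaks per Mb against 31.7 in the rest. The clusters of zinc finger genes therefore held no more peaks of this mark per Mb than the rest of the chromosome in this list. Only 164 of the 265 zinc finger symbols of chromosome 19 lay in the 5 runs, so the rest may not be free of such genes. The list is one of short peaks, with a median width of 316 bp in the clusters and 345 bp in the rest, and covered 0.804% of cluster bases against 1.57% of the rest.

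The sequence beside the clusters was not sparse in the same way. Within 1 Mb outside a cluster, over all 5 pooled, CUL4A stood at 74.2 peaks per Mb, CDT2 at 30.0 and U2OS origins at 96.8. Each was above the rest of the chromosome, with ratios of 1.18, 1.27 and 1.11. H3K9me3 there had 36.2 peaks per Mb, a ratio of 1.14, and the SKP2 lists stood at 1.03 in WT and 1.05 in RepID KO cells. The flanks of the 52.5 Mb cluster were lower, with ratios of 0.779 for U2OS origins, 0.934 for CUL4A and 0.955 for CDT2. The flanks are themselves part of the rest, so their regions were counted on both sides of these ratios and no interval is given. With these neighbouring stretches alone as the reference, the ratio of the clusters was 0.266 (0.227 to 0.310) for CUL4A and 0.377 (0.302 to 0.470) for CDT2.

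Chromosome 19 as a whole is dense, so the clusters were also set beside the other 22 chromosomes (1 to 18, 20 to 22 and X). Each of these was measured up to the end of its last region, with long empty stretches left in, unlike the rest of chromosome 19 above. This lowers their densities and raises the ratios below, by an amount that was not measured. H3K4me3, at 20.1 peaks per Mb in the clusters, was 2.55 times the density of the other chromosomes together (7.90 per Mb) and above each of the 22. SKP2 peaks of RepID KO cells, at 9.36 per Mb, were 2.12 times the other chromosomes and also above each of the 22. The remaining lists were within the range of the chromosomes: 1.09 times for CUL4A, 1.24 times for CDT2, 1.15 times for SKP2 in WT cells, 1.33 times for RepID KO origins, 0.920 times for H3K9me3 and 0.731 times for U2OS origins.

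H3K4me3 peaks, which mark active promoters, were fewer per Mb in the clusters but individually stronger. Their median fold enrichment over the control, a ratio computed by the authors' peak caller, was 9.11 (quartiles 5.54 and 13.4) against 7.28 (4.49 and 11.7) in the rest of chromosome 19, and 66.7% of them had a score at or above the median of the whole list, against 53.9% in the rest. The 19.8 Mb cluster was the exception, with a median of 5.94 and 4 of 21 peaks at or above that score. The medians of the 36.7, 44.3, 52.5 and 56.5 Mb clusters were 9.51, 10.5, 10.1 and 9.12. Counting only the stronger 50% of the list, the density ratio of the clusters was 0.798 (0.666 to 0.951). With all peaks, the ratio was 1.02 (0.874 to 1.18) without the 19.8 Mb cluster, and 0.715 (0.504 to 0.987) in the 36.7 Mb cluster alone. The lower pooled density and the higher enrichment thus came largely from different clusters.

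H3K9me3 peaks of the clusters had a median fold enrichment of 4.02 (quartiles 3.50 and 4.71), and those of the rest 4.05 (3.46 and 4.84). Of the 196, 71.9% had a −log10 q of at least 2, against 72.6% in the rest. The median widths of H3K4me3 peaks were 2102 bp in the clusters and 1955 bp in the rest.

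**Figure D2:**
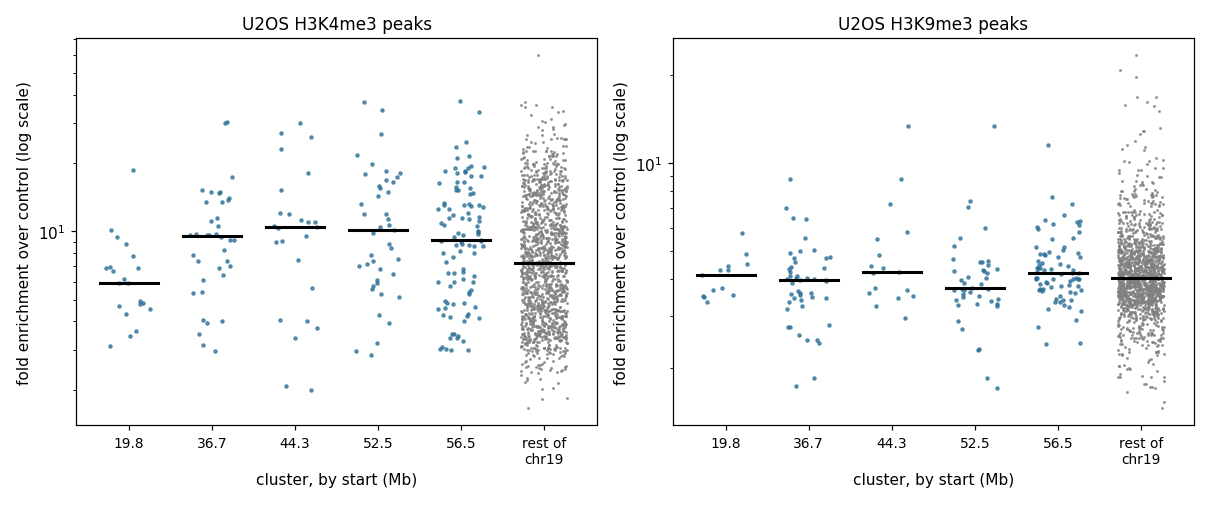
Fold enrichment over the control (log scale) of each H3K4me3 peak (left) and H3K9me3 peak (right) in the 5 clusters, named by start in Mb, and in the rest of chromosome 19 (grey), with bars at the medians. H3K4me3 medians lie between 9.12 and 10.5 in 4 clusters and at 5.94 in the 19.8 Mb cluster, against 7.28 in the rest, while H3K9me3 medians lie near 4 throughout.

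The colocalization of the lists was counted next. The study asked whether CRL4 and SCF subunits bind at origins and at marked chromatin. The counts here do not reproduce those of the paper. For CUL4A at origins, CUL4A at CDT2 and RepID KO SKP2 at origins, it reports larger shares over the whole lists. A region was taken as shared when it had at least 1 bp in common with a region of the other list, and each share is given with the share over the whole list. CUL4A peaks of the clusters met a U2OS origin in 130 of 223 cases, or 58.3% (Wilson 95% interval 51.7 to 64.6), against 74.5% in the rest of chromosome 19 and 69.3% over the whole list. The difference of −16.2 percentage points (−22.9 to −9.67) was larger than counting error. It did not hold when all regions were set to a width of 1 kb at their centres, where the difference was 1.79 points (−4.67 to 8.57), and origins covered 8.71% of cluster bases against 31.7% of the rest.

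The CUL4A peaks of the clusters were also lower at RepID KO origins of the other line, at 138 of 223 or 61.9% (55.4 to 68.0) against 82.3% in the rest and 66.8% over the whole list. RepID KO origins covered 8.96% of cluster bases against 32.9% of the rest. With H3K4me3, H3K9me3 and CDT2 the CUL4A peaks went the other way. They met H3K4me3 in 92 cases, or 41.3% (35.0 to 47.8), against 26.4% in the rest and 16.2% over the whole list, a difference of 14.9 points (8.41 to 21.6), and 23.6 points (14.4 to 33.1) between the stronger 50% of both lists. They met H3K9me3 in 88 cases, or 39.5%, against 29.4% in the rest and 33.2% over the whole list, a difference of 10.0 points (3.60 to 16.8). This difference shrank to 1.41 points (−0.738 to 5.03) when at least 50% of the CUL4A peak had to be covered. They met CDT2 in 77 cases, or 34.5%, against 25.1% in the rest and 26.0% over the whole list, a difference of 9.41 points (3.26 to 16.1). Counted from the marks, the direction was opposite. Of 228 H3K4me3 peaks 93 met CUL4A, or 40.8%, against 54.3% in the rest, −13.5 points (−20.2 to −6.52). Of 196 H3K9me3 peaks 101 did, or 51.5%, against 64.6%, −13.1 points (−20.4 to −5.72). Shares over the whole lists were not counted for these. CUL4A was also sparser in the clusters than either mark (ratios 0.314, 0.645 and 0.546), and the part of this was not tested.

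By both marks at once, 39 of the 223 CUL4A peaks (17.5%) met both histone marks, 53 met H3K4me3 without H3K9me3, 49 met H3K9me3 without H3K4me3 and 82 (36.8%) met neither. In the rest of chromosome 19 both marks were met by 9.40% (8.37 to 10.5) and neither by 53.6% (51.7 to 55.4). CDT2 together with H3K9me3 was met by 48 of the CUL4A peaks of the clusters, or 21.5% (16.6 to 27.4), against 14.6% (13.3 to 15.9). None of the 13 CUL4A peaks of the 19.8 Mb cluster met H3K4me3, which allows a share of up to 23.1%, and 3 met H3K9me3.

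CDT2 peaks of the clusters met CUL4A in 88 of 128 cases, or 68.8% (60.3 to 76.1), against 79.9% in the rest and 58.6% over the whole list. H3K9me3, a mark of late-replicating chromatin, was met by 54 of them, or 42.2% (34.0 to 50.8), against 47.0% in the rest and 42.9% over the whole list, a difference of −4.82 points with an interval from −13.6 to 4.34. H3K4me3 was met by 40, or 31.3% (23.9 to 39.7), against 24.5% in the rest and 9.64% over the whole list, a difference of 6.75 points (−1.11 to 15.6) that passed counting error without the 19.8 Mb cluster, at 8.56 points (0.356 to 17.7). U2OS origins were met by 69, or 53.9% (45.3 to 62.3), against 74.2% in the rest and 61.9% over the whole list.

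Seen from the histone marks, 52 of 196 H3K9me3 peaks met CDT2, or 26.5% (20.8 to 33.1), against 32.7% in the rest and 20.6% over the whole list. The H3K9me3 peaks met H3K4me3 in 47 cases, or 24.0% (18.5 to 30.4), against 18.9% in the rest and 5.96% over the whole list. H3K4me3 peaks met H3K9me3 in 46 of 228 cases, or 20.2% (15.5 to 25.9), against 18.4% in the rest and 13.2% over the whole list. Over all 5 clusters these pairs did not differ from the rest of chromosome 19 beyond counting error. Without the 19.8 Mb cluster, 25.7% (19.9 to 32.5) of H3K9me3 peaks met H3K4me3, and this pair then lay 6.78 points (0.622 to 13.8) above the rest.

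U2OS origins lay at 121 of the 228 H3K4me3 peaks of the clusters, or 53.1% (46.6 to 59.4), against 72.6% in the rest and 59.6% over the whole list. From the side of the origins, 118 of 342 met H3K4me3, or 34.5% (29.7 to 39.7), against 25.6% in the rest and 11.8% over the whole list. A smaller part of the H3K4me3 peaks thus lay at an origin than in the rest, while a larger part of the origins lay at H3K4me3. Origins were sparser in the clusters than H3K4me3 peaks (ratios 0.346 and 0.645) and covered 8.71% of cluster bases against 31.7% of the rest. The part of this in both shares was not tested, and regions of equal width were not tried for this pair. In RepID KO cells of the other line, 140 of 410 origins met a U2OS H3K4me3 peak, or 34.1% (29.7 to 38.9), against 26.7% in the rest and 18.7% over the whole list, and without the 19.8 Mb cluster 44.8% (39.2 to 50.6) did.

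**Figure D3:**
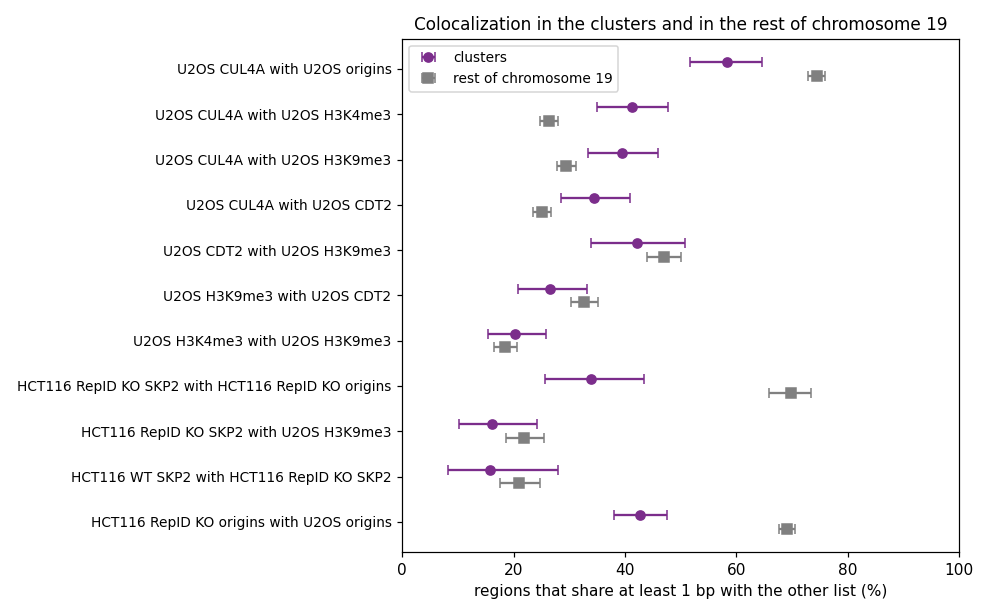
Share of regions (%, x axis) that have at least 1 bp in common with a region of the second list, for 11 pairs, in the clusters (purple circles) and in the rest of chromosome 19 (grey squares), with Wilson 95% intervals. CUL4A peaks of the clusters lie lower at origins (58.3% against 74.5%) and higher at H3K4me3, H3K9me3 and CDT2, and SKP2 peaks of RepID KO cells lie lower at RepID KO origins (34.0% against 69.8%). The shares of H3K4me3 and H3K9me3 peaks that met CUL4A, not drawn, were lower in the clusters.

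Regions of the U2OS lists also lay nearer to H3K4me3 in the clusters, by the distance between centres. The median was 6484 bp for CUL4A peaks of the clusters against 9934 bp in the rest, and 37.2% of them lay within 2 kb against 20.9%. For CDT2 the medians were 7452 and 10904 bp, with 37.5% and 23.3% within 2 kb. For H3K9me3 they were 9582 and 12610 bp, with 25% and 18.8% within 2 kb. SKP2 peaks of RepID KO cells were split, with 27.4% within 2 kb against 17.3% in the rest, 45.3% beyond 20 kb against 33.5%, and a median of 14720 bp against 10446 bp.

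**Figure D4:**
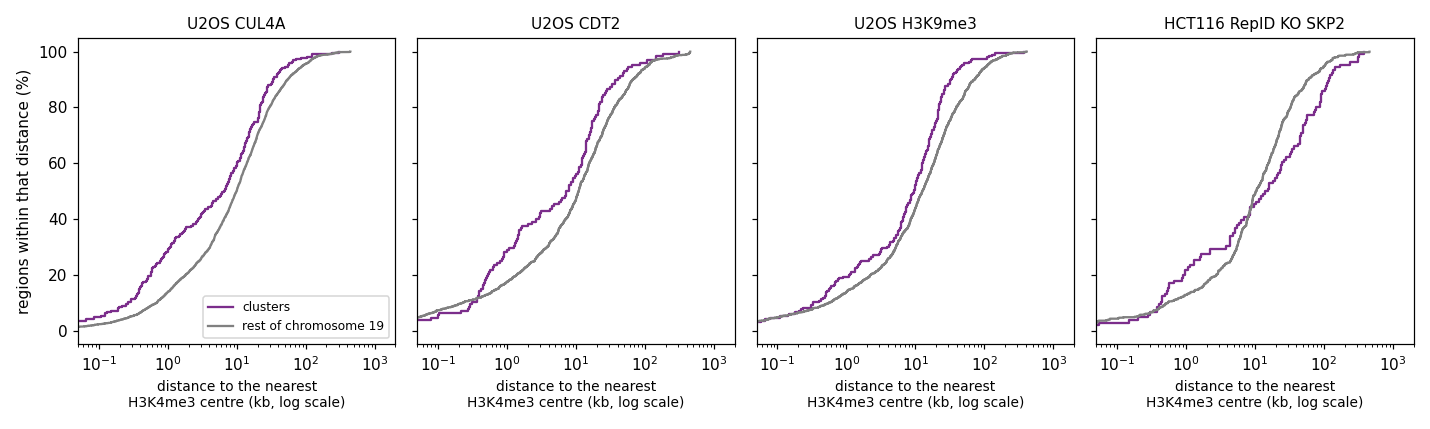
Cumulative share (%) of regions by the distance of their centre to the nearest U2OS H3K4me3 centre (kb, log scale) for CUL4A, CDT2, H3K9me3 and SKP2 in RepID KO cells, in the clusters (purple) and in the rest of chromosome 19 (grey). The purple line lies to the left for the 3 U2OS lists, with medians of 6484, 7452 and 9582 bp, and crosses the grey line for SKP2, whose median in the clusters is 14720 bp.

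Origins of the clusters differed between the cell lines by cluster. In the 19.8 Mb cluster 5 origins were listed in U2OS and 120 in HCT116 RepID KO cells, 24.0 times as many (10.0 to 75.3). In the 36.7 Mb cluster the counts were 107 and 37, a ratio of 0.346 (0.231 to 0.507), and in the 44.3 Mb cluster 53 and 19, a ratio of 0.358 (0.200 to 0.616). In the 52.5 Mb cluster the counts were 58 and 73, a ratio of 1.26 (0.879 to 1.81), and in the 56.5 Mb cluster 119 and 161, a ratio of 1.35 (1.06 to 1.73). In the rest of chromosome 19 the lists were nearly equal, with 3899 and 3855 origins and a ratio of 0.989 (0.945 to 1.03), although the whole U2OS list was longer, with 127325 origins against 85555.

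Pooled over the clusters the ratio was 1.20 (1.04 to 1.39), a value that the 19.8 Mb cluster decided: without it the ratio was 0.861 (0.733 to 1.01). Between the stronger 50% of both lists it was 0.848 (0.678 to 1.06). Cell line and RepID genotype changed together between these lists, so their parts in the difference cannot be told apart.

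All 5 U2OS origins of the 19.8 Mb cluster can be named. They lay at chr19:21890001-21890600, chr19:24183201-24185200, chr19:24513401-24524800, chr19:24526001-24529800 and chr19:24592201-24593600, so that 3 of them were in its last 100 kb. Between the first and the next lay 2.29 Mb without a U2OS origin, whereas the longest stretch of this cluster without a RepID KO origin was 0.224 Mb. The first pair also met a RepID KO origin and the third met no other list.

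Fewer origins were shared between the lines in the clusters. Of the 410 RepID KO origins 175 met a U2OS origin, or 42.7% (38.0 to 47.5), against 69.2% in the rest and 59.7% over the whole list, a difference of −26.5 points (−31.4 to −21.4). Without the 19.8 Mb cluster, where 2 of 120 were shared, the share was 59.7% (53.9 to 65.1) and the difference −9.50 points (−15.4 to −3.82). With 1 kb around each centre the difference over all 5 clusters was −2.11 points (−6.66 to 2.76). From the other side, 181 of 342 U2OS origins met a RepID KO origin, or 52.9% (47.6 to 58.2), against 73.2% in the rest and 42.3% over the whole list.

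SKP2 was the only protein mapped with and without RepID in 1 cell line, in a comparison made to see whether SCF, too, is found at origins. The clusters held 51 SKP2 peaks in WT and 106 in RepID KO cells, 2.08 times as many (1.47 to 2.96), while the rest of chromosome 19 held 487 and 562, 1.15 times as many (1.02 to 1.31), and the whole lists 12221 and 13885, 1.14 times as many. The ratio of the clusters was 1.80 times (1.25 to 2.62) that of the rest. Cutting the RepID KO list to its highest scores at the length of the WT list left 1.73 times as many (1.21 to 2.49), and the stronger 50% of both lists gave 1.93 times as many (1.20 to 3.16).

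By cluster the counts in WT and RepID KO cells were 9 and 39 at 19.8 Mb, 11 and 12 at 36.7 Mb, 5 and 7 at 44.3 Mb, 5 and 18 at 52.5 Mb, and 21 and 30 at 56.5 Mb. The excess lay beyond counting error in the 19.8 Mb cluster, with a ratio of 4.33 (2.06 to 10.2), and in the 52.5 Mb cluster, with a ratio of 3.60 (1.29 to 12.4). Relative to the rest of chromosome 19 these were 3.76 (1.76 to 8.90) and 3.12 (1.10 to 10.8) times as high. In the other 3 the intervals included 1. Without the 19.8 Mb cluster the pooled ratio was 1.60 (1.07 to 2.41), and its 1.38 times (0.907 to 2.13) that of the rest was within counting error. The WT and KO lists are 1 sample each, so this compares a pair of lists and not the spread between cultures.

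**Figure D5:**
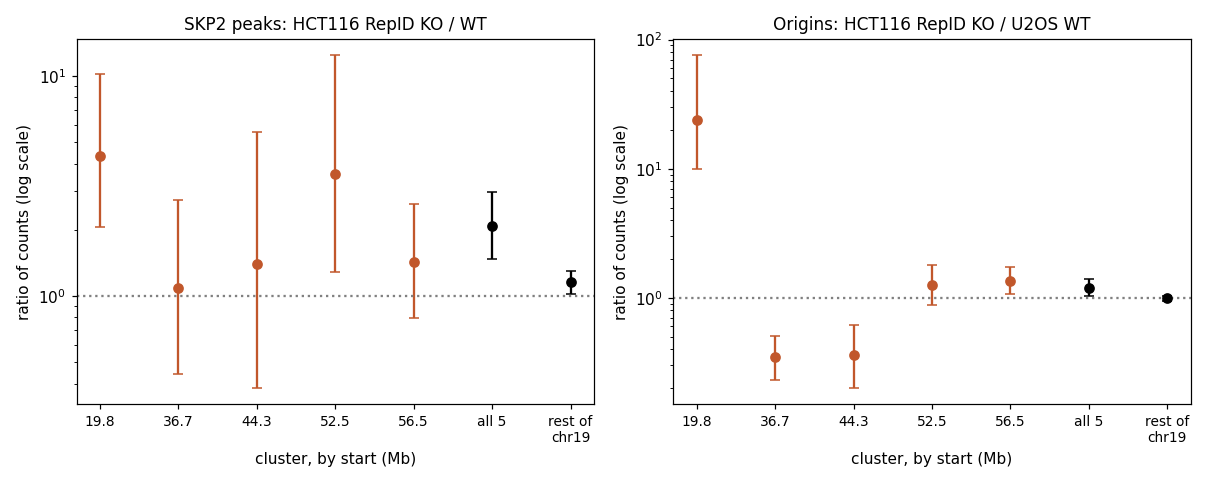
Ratio of region counts (log scale) with exact 95% counting intervals in each cluster, named by start in Mb, in all 5 together and in the rest of chromosome 19: SKP2 peaks of HCT116 RepID KO over WT cells (left) and origins of HCT116 RepID KO over U2OS WT cells (right). The 19.8 Mb cluster is highest in both, at 4.33 and 24.0, while the 36.7 and 44.3 Mb clusters lie at 0.346 and 0.358 for origins.

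Few SKP2 peaks were shared between the 2 genotypes, in the clusters as elsewhere. Of the 51 WT peaks 8 met a RepID KO peak, or 15.7% (8.17 to 28.0), against 20.9% in the rest and 14.0% over the whole list, a difference of −5.26 points (−13.7 to 7.52). Of the 106 RepID KO peaks 8 met a WT peak, or 7.55% (3.87 to 14.2), against 18.3% in the rest and 12.3% over the whole list, a difference of −10.8 points (−15.8 to −3.50) that was within counting error without the 19.8 Mb cluster, at −6.39 points (−13.1 to 3.94). The 8 sites were 2 in the 36.7 Mb cluster, 3 in the 44.3 Mb cluster and 3 in the 56.5 Mb cluster. One of them, the WT peak at chr19:44978079-44978417 (score 1168) and the RepID KO peak at chr19:44977952-44978422 (score 1104), met every other list except H3K4me3.

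Fewer SKP2 peaks of the clusters than of the rest lay at origins of RepID KO cells. For RepID KO peaks this was 36 of 106, or 34.0% (25.6 to 43.4), against 69.8% in the rest and 45.7% over the whole list, a difference of −35.8 points (−44.9 to −25.6). The share was 41.8% (30.7 to 53.7) without the 19.8 Mb cluster, and with 1 kb around each centre the difference was −8.05 points (−16.6 to 1.89). For WT peaks it was 24 of 51, or 47.1% (34.1 to 60.5), against 75.2% in the rest and 49.3% over the whole list, with the origins taken from the other genotype. RepID KO origins covered 8.96% of cluster bases against 32.9% of the rest, and the part of this in the lower shares was not tested.

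With U2OS H3K9me3 17 of the 106 RepID KO peaks overlapped, or 16.0% (10.3 to 24.2), against 21.9% in the rest and 18.9% over the whole list, a difference within counting error that turned to 3.49 points (−6.10 to 15.5) without the 19.8 Mb cluster. With U2OS H3K4me3 28 overlapped, or 26.4% (19 to 35.5), against 17.4% in the rest and 6.66% over the whole list. All 28 lay outside the 19.8 Mb cluster, where they were 41.8% of 67 peaks. With U2OS origins 34 overlapped, or 32.1% (24.0 to 41.5), against 73.0% in the rest and 56.0% over the whole list, and without the 19.8 Mb cluster 50.7% (39.1 to 62.3) did. With CUL4A 36 overlapped, or 34.0% (25.6 to 43.4), against 57.7% in the rest and 34.8% over the whole list, a difference of −23.7 points (−32.9 to −13.4) that shrank to −9.89 points (−22.1 to 2.57) without the 19.8 Mb cluster. With CDT2 22 overlapped, or 20.8% (14.1 to 29.4), against 23.3% in the rest and 17.1% over the whole list.

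Of the 39 SKP2 peaks of RepID KO cells in the 19.8 Mb cluster, 8 lay at a RepID KO origin, 4 met a CUL4A peak and 2 met a CDT2 peak. None met an SKP2 peak of WT cells, an H3K4me3 peak, an H3K9me3 peak or a U2OS origin, each of which allows a share of up to 7.69%. Those lists held 9, 21, 13 and 5 regions there and covered between 0.0633% and 0.544% of the cluster, so a count of 0 says little about these peaks. Their median score was 284, against 512 for the peaks of the rest of chromosome 19 and 359 for the whole list. The highest 3 scores, 1024 at chr19:20055797-20056126, 790 at chr19:20269136-20269337 and 707 at chr19:20057444-20058405, were chosen after their values had been seen. The first met a RepID KO origin, the next a CUL4A and a CDT2 peak, and the last no other list.

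The sites with the highest scores of the authors were named for each list, 2 per list in the clusters. For CUL4A both lay in the 36.7 Mb cluster and were very wide: chr19:37758801-37798400 (39600 bp, score 5223) and chr19:36744601-36801600 (57000 bp, score 5084), ranked 27 and 29 among all 56715 peaks. The same places held the strongest origins of the clusters in both lines, in U2OS at chr19:36754401-36800800 (46400 bp, score 9799) and chr19:37756201-37799400 (43200 bp, score 6695) and in RepID KO cells at chr19:36756001-36803400 (score 18041) and chr19:37757801-37798600 (score 14584). Both also held peaks of both marks, with 4 of H3K9me3 and 1 of H3K4me3 in the first CUL4A peak and 6 and 2 in the next, a WT SKP2 peak each and no CDT2 or RepID KO SKP2 peak.

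These 2 sites made up 60.0% of the bases covered by CUL4A in the 36.7 Mb cluster, 57.3% of those covered by RepID KO origins and 21.6% of those covered by U2OS origins. Without them CUL4A covered 3.79% of this cluster and RepID KO origins 3.86%, in place of 9.47% and 9.05%. The next widest CUL4A peak there was 4200 bp. Counts of regions are hardly touched by them, whereas any value over covered bases is. Their bounds were nearly the same in the CUL4A list and in the origin lists of both lines. No filter for repeated or poorly mapped sequence was applied here, and whether such sequence gave these 2 wide sites was not tested.

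The strongest CDT2 peaks lay in the 52.5 Mb cluster. The first, chr19:53774881-53776795 (score 276.61), ranked 320 among 28516 and shared 664 bp with the strongest H3K9me3 peak of the clusters, chr19:53776001-53776664 (13.4-fold, −log10 q 31.3), and 1704 bp with an H3K4me3 peak, so that both marks were listed at this CDT2 site. The next, chr19:53592912-53593978 (score 205.97), shared 1002 bp with H3K9me3 and 329 bp with an SKP2 peak of RepID KO cells and met no H3K4me3 peak. The second H3K9me3 peak by fold enrichment, chr19:44306698-44307360 (13.3-fold), lay wholly within a CUL4A, a CDT2 and a U2OS origin region.

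The strongest H3K4me3 peaks were chr19:59067595-59071870 (37.4-fold) and chr19:53323298-53325140 (37.0-fold), ranked 26 and 30 among 25181. Each met CUL4A, CDT2, H3K9me3 and the origins of both lines and no SKP2 peak. The strongest WT SKP2 peaks were chr19:53444632-53444928 (score 1314) and chr19:56670136-56670490 (score 1292), neither of which met a RepID KO peak. The strongest RepID KO SKP2 peaks were chr19:53031717-53032350 (score 1881) and chr19:52597676-52597900 (score 1631), neither of which met a WT peak.

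Of the cluster bases 82.2% lay under no list, against 48.8% in the rest of chromosome 19. A base of the clusters lay under 7 lists at most, while 2412 bp of the rest lay under all 8. Per base, sites under many lists were rarer in the clusters, as were bases under 1 list (10.6% against 23.7%). Shares among covered bases were not taken, so this does not show that lists met less often where any was present. Bases under 6 lists made up 0.0781% of the clusters against 0.158% of the rest, and bases under 7 lists 0.0116% against 0.0402%. The clusters held 27 stretches under 6 or 7 lists: 13 in the 52.5 Mb cluster, 10 in the 56.5 Mb cluster, 3 in the 44.3 Mb cluster, 1 in the 36.7 Mb cluster and 0 in the 19.8 Mb cluster. The 4 stretches under 7 lists were chr19:44977952-44978422, which lacked H3K4me3, chr19:53074359-53074800, which lacked SKP2 of WT cells, and chr19:53444608-53444928 and chr19:53634839-53635486, which both lacked SKP2 of RepID KO cells. Most of these stretches thus lay in the 52.5 and 56.5 Mb clusters, which span 1.5 and 2.62 Mb, while the 44.3 Mb cluster with 3 of them spans 0.7 Mb.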

How the data were processed

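Each of the 8 lists was deposited by the authors as called regions of 1 sample, and no reads were used. The labels give hg19 as the build and MACS and SICER as tools. Per the methods, SICER used windows of 200 bp and gaps of 600 bp, with false discovery rates of 1e-05 (CUL4A) and 0.01 (origins), and MACS2 broad calling was used for CDT2 and SKP2. In each deposited list a score of the authors, whose scale is not stated, ranks the regions. The lists deposited for the 2 histone marks are laid out like MACS2 broad peaks, with fold enrichment over the control as a ratio and significance as −log10 p and −log10 q, whereas the methods name SICER. The lists give no library totals, so depth is unknown. Scores were not compared between lists.

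A region was placed by its centre. Densities and density ratios have exact intervals, the ratio conditional on the total (Clopper-Pearson), shares have Wilson and differences Newcombe 95% intervals, and all cover counting error only. Ratios of the flanks to the rest, which contains them, are given without an interval. The limit for a count of 0 is 3 counts. The rest of chromosome 19 leaves out its longest stretch without any region, chr19:24608999-27733213. Regions named are the 2 of each list with the highest score (fold enrichment for histone marks) and the sites under the most lists; the others were chosen after their values were seen. The members, lists and rules were chosen with earlier results of these data known. Counting was tested on simulated data: 0 of 12000 overlaps differed from those counted one by one, and 952 and 959 of 1000 intervals of ratios and differences held the true value. Python 3.11.15, NumPy 2.4.6, SciPy 1.17.1 and matplotlib 3.10.9 were used.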

Additional observations from a re-analysis of the deposited data

How the results depend on the processing

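Under the alternatives 35 density ratios stayed within the counting interval of the value reported, 22 left it on the same side of 1, and 1 reversed. Without the 19.8 Mb cluster the ratios were 0.514 for CUL4A, 0.787 for CDT2, 1.02 for H3K4me3 (reversed), 0.884 for H3K9me3, 0.592 for U2OS origins, 0.591 for SKP2 in WT cells and 0.516 for RepID KO origins. Without the 56.5 Mb cluster, a setting chosen after seeing the data, they were 0.207 for CUL4A, 0.283 for CDT2, 0.467 for H3K4me3, 0.435 for H3K9me3, 0.294 for U2OS origins and 0.332 for RepID KO origins. By covered bases they were 0.260 for CUL4A, 0.275 for U2OS origins and 0.272 for RepID KO origins. In the stronger 50% of each list they were 0.249 for CUL4A, 0.798 for H3K4me3, 0.305 for U2OS origins, 0.533 for SKP2 in RepID KO cells and 0.258 for RepID KO origins. Against the sequence within 1 Mb, also chosen after seeing the data, they were 0.266 for CUL4A and 0.377 for CDT2.

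Among the differences of shares 58 stayed within their counting interval, 11 left it and 1 reversed. The 11 include RepID KO SKP2 at H3K9me3, which changed sign from −5.85 points (−12.7 to 2.92), an interval that held 0. With 1 kb around each centre the difference between clusters and rest was 1.79 points for CUL4A at origins (reversed), −8.05 for RepID KO SKP2 at RepID KO origins and −2.11 for RepID KO origins at U2OS origins. With at least 50% covered it was 1.41 points for CUL4A at H3K9me3 and −21.0 for RepID KO origins at U2OS origins, and between the stronger 50% of both lists 23.6 points for CUL4A at H3K4me3. Without the 19.8 Mb cluster, chosen after seeing the data, it was 3.49 points for RepID KO SKP2 at H3K9me3, 24.4 at H3K4me3, −22.2 at U2OS origins and −9.89 at CUL4A, and −9.50 for RepID KO origins at U2OS origins and 18.1 at H3K4me3. In this setting the interval came to leave out 0 for H3K9me3 and CDT2 peaks at H3K4me3 (6.78 and 8.56 points) and to hold it for RepID KO SKP2 at CUL4A and at WT SKP2 (−6.39 points). The ratio of origins between the lines, likewise, was 0.848 in the stronger 50% and 0.861 without the 19.8 Mb cluster (both reversed), and 1.03 by covered bases. The causes of these changes were not tested.

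No paired analysis was possible because each list has 1 sample. The alternative on parts of genes was not run, since no annotation of the build was used here. Depth, which is unknown, and the number of SKP2 peaks, as few as 5 in a cluster, limit the precision.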
